A study of Mus musculus with 24 samples.

Results

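The genes described here are 9 kallikreins of mouse skin, Klk5, Klk6, Klk7, Klk8, Klk9, Klk10, Klk11, Klk13 and Klk14, together with Spink5, the gene of their inhibitor LEKTI. They were chosen by symbol, and all 10 were found among the 18368 genes of the deposited expression table, with values in all 24 libraries.

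The RNA came from 12 CD-1 mice, which are outbred, 7 weeks old and, per the labels, synchronised in telogen, the resting phase of the hair cycle. Each mouse was wounded at 1 site only, the abdomen, the back or the cheek, with 4 mice per site, so that differences between sites are also differences between mice. The wounds were excisions 2 mm across, 1 per mouse on the cheek and 2 on the abdomen or back, and after 3 days both the wound and nearby unwounded skin of the same mouse were taken with a 2 mm punch. The 6 groups of 4 libraries are therefore unwounded abdomen, back and cheek skin and abdomen, back and cheek wounds, and the unwounded groups are wounded animals' skin and not skin of untouched mice. The punches hold epidermis, dermis and what lies below, so in these bulk samples fewer cells of a type and less RNA per cell cannot be told apart. Expression is given as FPKM, a read level corrected for transcript length and for how many fragments each library mapped, which lets genes be compared with each other.

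Tissue kallikreins are secreted serine proteases. In the epidermis they are made mainly by keratinocytes of the granular layer and are released, as inactive precursors, into the space between the cells of the cornified layer, where they cut the desmosome proteins that hold these cells together and so let the surface cells be shed (desquamation). Klk5 and Klk7 are the best known of these enzymes, Klk5 can activate other kallikreins, and LEKTI, which is cut into fragments that block Klk5, Klk7 and Klk14, holds the activity back. Loss of LEKTI causes Netherton syndrome, a disease with a fragile skin barrier and inflammation.

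The 9 kallikrein genes lie side by side on the forward strand of chromosome 7 (GRCm38.p6, chr7:43680880-43851181, a span of 170.3 kb), in the order Klk14, Klk13, Klk11, Klk10, Klk9, Klk8, Klk7, Klk6, Klk5, with Klk12 between Klk13 and Klk11. Spink5 is on chromosome 18. In the GENCODE annotation an antisense transcript, 2310002F09Rik, overlaps 6 of the 9 kallikrein genes (Klk8, Klk9, Klk10, Klk11, Klk13 and Klk14). Whether the counting used strand is not given in the sources used here, so reads of that transcript and of these genes cannot be told apart.

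The sequences before the gene starts of 3 kallikreins are shown because these genes lie close together and had different responses to wounding, with the steepest rises for Klk13 and Klk6 and no rise that passed the test for Klk10. Each RefSeq window runs from 250 bases before to 50 bases after an annotated start and is written 5′ to 3′ on the forward strand, with capitals marking CACCC or its reverse complement GGGTG, the core of the sites bound by Krüppel-like factors.

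Klk13, chr7:43712317-43712616: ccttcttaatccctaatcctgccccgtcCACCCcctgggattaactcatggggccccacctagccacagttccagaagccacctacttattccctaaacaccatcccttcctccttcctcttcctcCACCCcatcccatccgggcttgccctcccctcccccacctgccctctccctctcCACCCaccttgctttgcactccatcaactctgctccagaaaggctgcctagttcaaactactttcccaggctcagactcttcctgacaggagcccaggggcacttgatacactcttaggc

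Klk6, chr7:43824294-43824593: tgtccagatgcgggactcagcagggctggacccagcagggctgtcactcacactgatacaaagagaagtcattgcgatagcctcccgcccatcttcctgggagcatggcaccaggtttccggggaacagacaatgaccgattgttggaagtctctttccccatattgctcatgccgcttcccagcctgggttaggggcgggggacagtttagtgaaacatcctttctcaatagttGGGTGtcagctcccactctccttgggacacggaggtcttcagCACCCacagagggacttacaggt

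Klk10, chr7:43780804-43781103: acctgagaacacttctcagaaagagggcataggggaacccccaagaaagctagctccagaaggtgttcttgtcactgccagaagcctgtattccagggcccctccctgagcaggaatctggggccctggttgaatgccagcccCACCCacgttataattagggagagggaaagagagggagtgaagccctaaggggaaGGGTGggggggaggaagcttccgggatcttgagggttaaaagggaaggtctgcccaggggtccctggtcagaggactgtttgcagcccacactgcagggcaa

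RefSeq gives 2 windows for Klk6, of which the first is shown, 2 for Klk11 and 1 for each other kallikrein. The CACCC core occurred 3 times in the Klk13 window, 2 times in the Klk6 window shown and 2 times in the Klk10 window, and 0 times in the second Klk6 window (chr7:43825200-43825499), the second Klk11 window and the Klk8 window. Of the 11 kallikrein windows, 8 held CACCC on either strand, against 57.5% of 32851 windows of the same length for all genes. The grainyhead-like core AACCNG was in 6 of the 11 windows, which belong to 5 genes (Klk5, Klk6, Klk8, Klk10 and Klk11), against 39.4% of all windows. The AP-1 motif TGANTCA, in 7.81% of all windows, and the TATA box TATAAA, in 13.6%, were in 0 of the 11 windows.

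Some libraries stood apart in ways that touch the values below. The FPKM of a library summed to between 490830 and 608888, and the depth of the libraries is unknown, since FPKM holds no counts. A rough estimate of relative depth, from the smallest non-zero values of 10 genes, was 0.905 to 1.11 over the libraries. Krt10, a keratin of the upper epidermis, was abundant everywhere, between 1652 and 4008 FPKM over the 12 unwounded libraries and between 2217 and 3668 FPKM over the 12 wounds. Markers of the granular layer, where kallikreins are made, rose or fell in wounds, as given below. Krt10 alone therefore does not measure that layer. The summed FPKM of 7 skeletal muscle markers ranged from 428 to 19521 in unwounded skin and from 1282 to 5572 in wounds, and in abdomen skin it was 12980, 428, 2331 and 12619 in mice 1 to 4. The summed FPKM of 15 hair follicle markers was 6618 in the unwounded cheek library of mouse 4 and between 9.83 and 102 in the other unwounded libraries, the 102 being that of back mouse 2. The RNA of growing follicles in the cheek library goes against the labelled hair cycle stage. Without this mouse, 7 of the 10 genes were called between cheek wound and skin, as with it. With all mice, 19.7% of tested genes rose and 16.9% fell in cheek wounds, and the shares without this mouse are not given. Among the abdomen wounds, the library of mouse 1 was the highest for 9 of the 10 genes and that of mouse 4 was the lowest for all 10. The same 2 libraries were the extremes of the abdomen wounds for the sum of 15 wound keratinocyte markers (22909 and 4671 FPKM) and of 9 neutrophil markers (2462 and 372 FPKM). Most of the neutrophil sum of mouse 1 was S100a9 (1348 FPKM) and S100a8 (994 FPKM). These 2 genes, Cxcr2, Trem1 and Clec4d had the same extremes as the sum. Mmp8 was highest in mouse 4 (2.10 FPKM) and Retnlg in mouse 3 (19.1 FPKM), and Ly6g and Csf3r also had other extremes.

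In unwounded skin the desquamation genes differed widely in level. Klk7 was the most abundant with a mean of 202 FPKM ± 42.5 (SD, n = 12 libraries), rank 366 of the 18368 genes. It was followed by Klk10 (155 ± 63.1 FPKM), Spink5 (117 ± 29.7 FPKM) and Klk5 (116 ± 27.5 FPKM), 3 genes whose means differed by less than the SD of Klk10. Klk8 had a mean of 58.9 ± 16.9 FPKM, Klk6 33.4 ± 17.8 FPKM, Klk11 28.3 ± 6.66 FPKM and Klk9 17.0 ± 6.57 FPKM, and Klk6 and Klk11 differed by less than their spread. Klk13 (4.69 ± 3.91 FPKM) and Klk14 (1.30 ± 0.997 FPKM) were the lowest.

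In day-3 wounds the order changed. Klk7 was still the highest, with a mean of 302 FPKM ± 56.4 (SD, n = 12), and Klk6 was next with 248 ± 94.1 FPKM, within its own SD of Klk7. Klk8 (163 ± 43.8 FPKM), Klk5 (154 ± 40.0 FPKM), Klk10 (152 ± 47.9 FPKM) and Spink5 (125 ± 24.0 FPKM) followed and lay within their spread of each other. Klk9 (66.0 ± 22.2 FPKM) and Klk13 (62.0 ± 27.7 FPKM) lay close together above Klk11 (45.4 ± 10.6 FPKM), and Klk14 (3.68 ± 2.39 FPKM) was again the lowest.

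**Figure D1:**
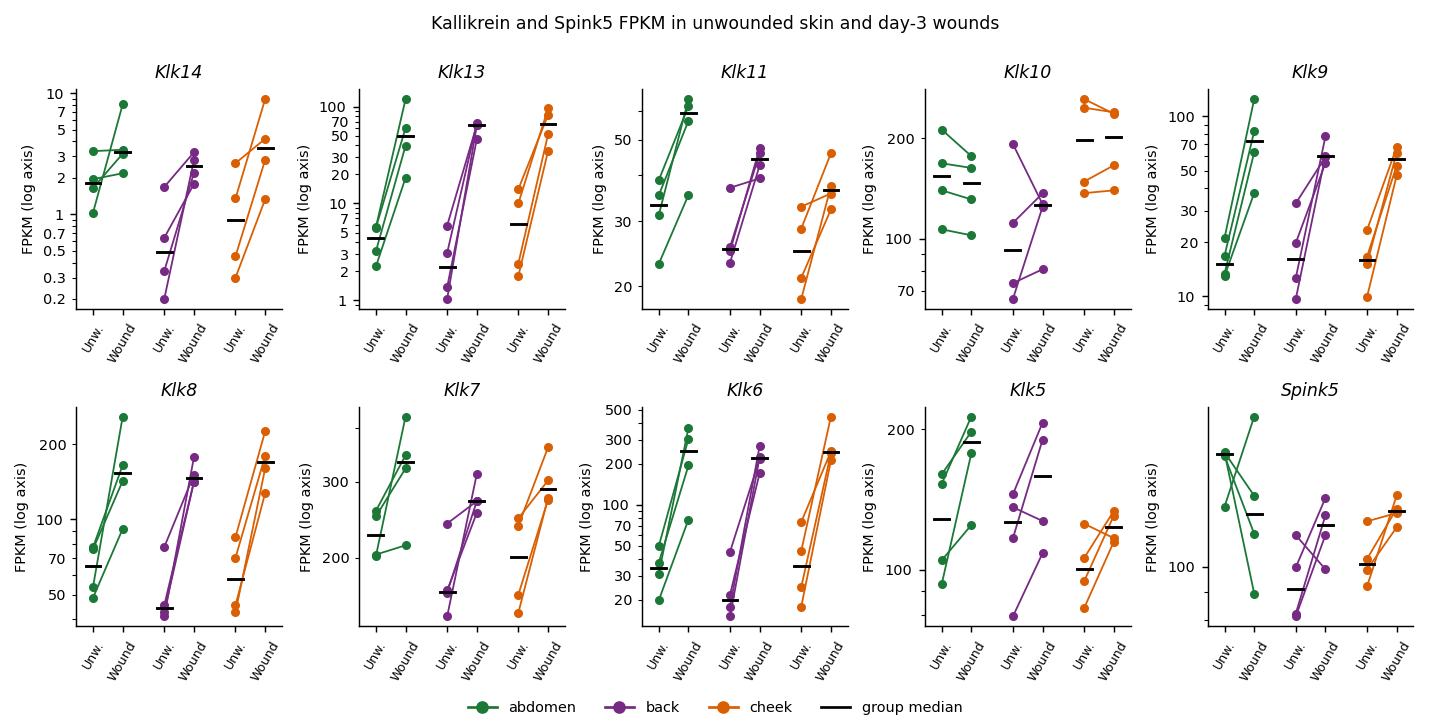
FPKM of the 10 genes on log axes (kallikreins in chromosomal order, each axis with its own range) in unwounded skin (Unw.) and day-3 wounds; each point is a library, lines join the 2 libraries of a mouse and black bars are group medians. All 12 lines of Klk6, Klk7, Klk8, Klk9, Klk11, Klk13 and Klk14 go up, while those of Klk5, Klk10 and Spink5 go both ways.

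Most of the kallikreins were higher in wounds than in unwounded skin at every site. The question was which of the 10 genes changed between unwounded skin and wound of the same mice, and limma was fitted to log2(FPKM + 0.5) of the 24 libraries with mouse as a term, with Benjamini-Hochberg adjustment over 14423 genes. With an adjusted p under 0.05, 7 of the 10 genes rose in abdomen wounds, where 16.9% of all tested genes rose. In back wounds 8 of the 10 rose, against 28% of all tested genes, and in cheek wounds 7 of the 10, against 19.7%. Lower calls were made for 0 of the 10 genes at each site, where 16%, 17.9% and 16.9% of tested genes fell in abdomen, back and cheek wounds. At an unadjusted p under 0.05, limma passed the same numbers of the 10 genes (7, 8 and 7). Many of the 14423 genes pass at this threshold, in either direction. Ranked by p, C1qa (0.0390) stood at 5963 in abdomen, Dcn (0.0498) at 7717 in back and Krt71 (0.0484) at 6648 in cheek wounds. At an adjusted p under 0.001 the counts of raised genes were 3, 4 and 4, against 3.92%, 10% and 6.5% of tested genes. All 10 genes passed the filter on low values in every fit. For abdomen, back and cheek wounds in turn, the 10 genes had median log2 fold changes of 0.80, 1.05 and 1.06, and all tested genes had medians of -0.01, 0.07 and 0.01. The wound was higher in all 4 mice for 8 of the 10 genes in abdomen. The back had 7 such genes and the cheek 8, while 23.7%, 33.9% and 25% of tested genes behaved this way at the 3 sites.

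Klk13 had the largest fold change. Its FPKM in unwounded abdomen skin was 5.66, 5.62, 3.20 and 2.23 in mice 1 to 4, and in the wounds of these mice 119.6, 60.2, 39.6 and 18.4. In back skin it was 5.90, 1.03, 3.07 and 1.36, and in back wounds 64.7, 64.0, 67.2 and 46.0. In cheek skin it was 1.78, 2.39, 10.01 and 14.1, and in cheek wounds 34.8, 51.6, 95.9 and 82.0. The wound libraries lay above the unwounded ones at every site, and within a mouse the wound was 5.83 to 62.1 times the unwounded level. The log2 fold change was 3.46 ± 0.34 (SE) in abdomen, 4.41 ± 0.34 in back and 3.46 ± 0.34 in cheek wounds, or 10.98-fold, 21.2-fold and 10.97-fold higher, with limma adjusted p values of 5.93e-05, 4.48e-06 and 3.45e-05. Its human counterpart KLK13 is known from stratified epithelia.

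Klk6 rose from a higher level. It was first studied as a protease of the nervous system and is also made by keratinocytes. Its FPKM in abdomen skin was 31.1, 49.6, 37.6 and 19.8, and in abdomen wounds 366, 306, 195 and 77.8. Unwounded back libraries gave 45.1, 17.8, 21.8 and 15.1, and back wounds 218, 272, 171 and 225. Unwounded cheek libraries gave 17.8, 24.8, 45.7 and 74.6, and cheek wounds 212, 239.6, 445 and 247. The unwounded and wound libraries did not overlap at any site. The log2 fold change was 2.61 ± 0.35 (SE) in abdomen, 3.24 ± 0.35 in back and 2.94 ± 0.35 in cheek wounds, that is 6.12-fold, 9.45-fold and 7.69-fold, with limma adjusted p values of 0.000398, 4.46e-05 and 0.00012.

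Klk9 and Klk8 rose at all 3 sites, and their wound libraries also lay above all unwounded libraries of the site. For Klk9, a chymotrypsin-like member of the family, unwounded libraries ranged from 9.68 to 32.9 FPKM and wound libraries from 37.6 to 125 FPKM. Its rise was 4.36-fold in abdomen, 3.64-fold in back and 3.59-fold in cheek wounds (limma adjusted p 0.000194, 0.000211 and 0.000333). Klk8, known as neuropsin in the brain and as an epidermal protease of the granular layer, ranged from 41.0 to 85.1 FPKM in unwounded skin and from 91.8 to 258 FPKM in wounds. Its rise was 2.44-fold in abdomen, 3.03-fold in back and 2.89-fold in cheek wounds (limma adjusted p 0.00118, 0.000122 and 0.000245). Of the 10 genes, 4 (Klk6, Klk8, Klk9 and Klk13) had non-overlapping, higher wound libraries in abdomen, where 13.4% of tested genes had this. In back the count was 7 (also Klk7, Klk11 and Klk14), against 25%, and in cheek 5 (also Klk7), against 16.7%.

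**Figure D2:**
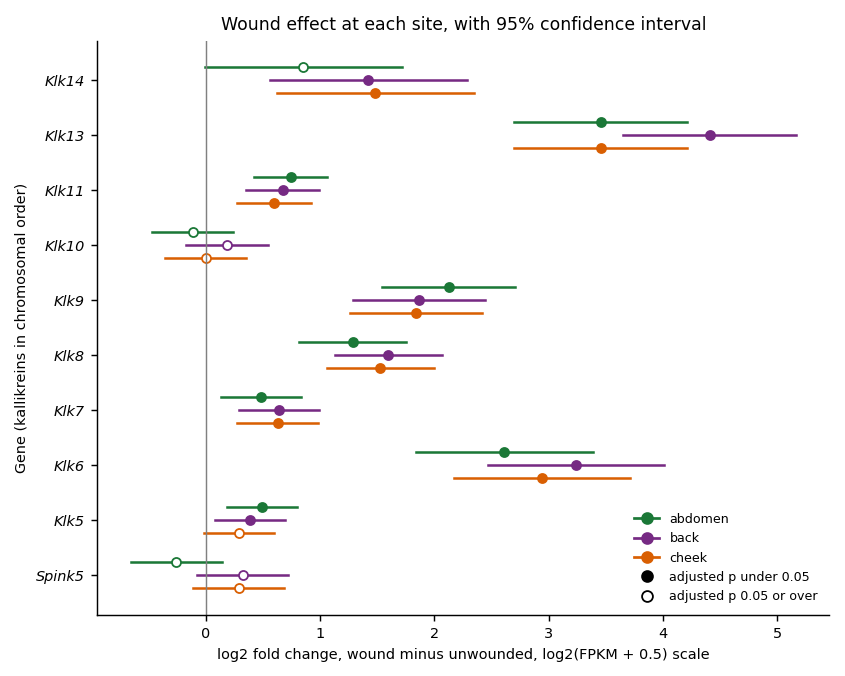
Log2 fold change (wound minus unwounded, log2(FPKM + 0.5) scale) of each gene at each site, with 95% confidence intervals from limma; filled points have an adjusted p under 0.05. Klk13 and Klk6 lie farthest to the right, the intervals of Klk10 and Spink5 cross 0 at all 3 sites, and the intervals of the 3 sites overlap for every gene.

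The 2 main desquamation proteases and Klk11 moved much less. Klk7, the chymotrypsin-like enzyme that cuts corneodesmosin, was 202, 257, 249 and 203 FPKM in abdomen skin and 426, 346, 323 and 214 FPKM in the wounds of mice 1 to 4. In back skin it was 240.0, 146, 168 and 166 FPKM and in back wounds 271, 313, 254 and 271 FPKM. In cheek skin it was 164, 149, 238 and 247 FPKM and in cheek wounds 273, 275, 361 and 302 FPKM. The groups overlapped in abdomen and not in back or cheek, and the rise was 1.402-fold, 1.56-fold and 1.55-fold (limma adjusted p 0.0352, 0.00631 and 0.00944). Klk11, a trypsin-like member, rose 1.67-fold in abdomen, 1.597-fold in back and 1.51-fold in cheek wounds (limma adjusted p 0.00279, 0.00279 and 0.00753), from 18.5 to 38.8 FPKM in unwounded skin to 32.3 to 64.5 FPKM in wounds.

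Klk5, the trypsin-like enzyme that can activate Klk7 and Klk14, was 93.0, 153, 160.2 and 105 FPKM in abdomen skin and 178, 213, 198 and 125 FPKM in abdomen wounds. In back skin it was 136, 145, 79.4 and 117 FPKM and in back wounds 127, 207, 109 and 190.2 FPKM. In cheek skin it was 82.7, 106, 126 and 94.4 FPKM and in cheek wounds 115, 134, 117 and 131 FPKM. It was higher in the wound in all 4 abdomen mice and in 3 of 4 mice at back and at cheek, but unwounded and wound libraries overlapped at every site. The rise was 1.41-fold in abdomen (limma adjusted p 0.0186) and 1.31-fold in back wounds (0.0382), and in cheek wounds the 1.22-fold difference did not pass the test (0.123). The calls of Klk5 and Klk7 were the least firm. Without abdomen mouse 1 or 2 the adjusted p in abdomen was 0.0988 and 0.0506 for Klk5, and without mouse 1, 2 or 3 it was 0.186, 0.074 and 0.0691 for Klk7. It was over 0.05 for Klk5 in back wounds without mouse 2, 3 or 4 (0.127, 0.109 and 0.173).

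Klk14, a trypsin-like activator of other kallikreins, was close to the lower limit of the measurement. Its FPKM was 1.03, 3.32, 1.65 and 1.95 in abdomen skin and 8.10, 3.41, 3.16 and 2.18 in abdomen wounds. The unwounded back had 0.20, 1.68, 0.34 and 0.64 and back wounds 2.79, 3.25, 2.19 and 1.78. The unwounded cheek had 0.30, 0.45, 1.35 and 2.64 and cheek wounds 1.33, 2.82, 8.93 and 4.20. Every mouse had more in its wound than in its skin. The rise was computed from log2(FPKM + 0.5), which understates the change of a low gene. It was 2.68-fold in back (limma adjusted p 0.0121) and 2.79-fold in cheek wounds (0.0127), and the 1.81-fold difference in abdomen wounds did not pass the test (0.116). These calls were lost without back mouse 1 (0.0608) and without cheek mouse 2 or 3 (0.0593 and 0.0677).

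Klk10 was the one kallikrein with no call at any site. It was 212, 139.6, 168 and 107 FPKM in abdomen skin and 177, 131, 163 and 102 FPKM in the wounds, lower in each of the 4 mice, an arrangement seen for 25% of tested genes. In back skin it was 192, 73.7, 112 and 66.2 FPKM and in back wounds 127, 81.2, 137 and 125 FPKM. In cheek skin it was 148, 137, 246 and 262 FPKM and in cheek wounds 166, 139.6, 239 and 236 FPKM. The log2 fold changes were -0.11 (95% interval -0.47 to 0.24), 0.19 (-0.17 to 0.54) and -0.00 (-0.36 to 0.36), so that rises of the size seen for Klk8 or Klk9 lay outside the intervals. Without back mouse 1, whose unwounded library was the highest of the back skin for 7 of the 10 genes, the back value of Klk10 was 0.45 (limma adjusted p 0.0167).

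Spink5, the inhibitor gene, did not pass the test at any site. Its FPKM was 128, 161, 159 and 161 in abdomen skin and 187, 134, 115 and 89.3 in abdomen wounds, a rise in mouse 1 and a lower value in the other 3 mice. Unwounded back libraries had 99.7, 82.2, 81.2 and 114 and back wounds 133, 124, 114 and 98.9. Unwounded cheek libraries had 98.7, 103, 121 and 92.0 and cheek wounds 118, 127, 125 and 135, higher in all 4 mice. The log2 fold change was -0.26 (95% interval -0.66 to 0.14) in abdomen, 0.32 (-0.08 to 0.72) in back and 0.29 (-0.11 to 0.69) in cheek wounds, with limma adjusted p values of 0.30, 0.169 and 0.237. Without mouse 1, the abdomen value was -0.52 and passed the test (0.0277).

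The sum of the 9 kallikreins was higher in wounds, also relative to Spink5. The mean summed FPKM was 665 ± 104 (SD, n = 4) in abdomen skin and 1244 ± 421 in abdomen wounds. For the back it was 537 ± 154 and 1097 ± 104, and for the cheek 651 ± 181 and 1247 ± 260.0. It was higher in the wound in 12 of 12 mice, by 1.34 to 2.66 times. The ratio of this sum to Spink5 was 4.402 ± 0.795 in abdomen skin and 9.402 ± 1.15 in abdomen wounds, 5.76 ± 1.54 and 9.45 ± 1.51 for the back, and 6.32 ± 1.85 and 9.87 ± 1.98 for the cheek. This ratio was also higher in the wound in 12 of 12 mice, by 1.03 to 2.88 times. The sum of Klk5, Klk7 and Klk14 alone, the targets of LEKTI fragments named above, was also divided by Spink5. This choice leaves out Klk6 and Klk13, which had the steepest rises, and is not taken as the full set of LEKTI targets. Means in skin and wounds were 2.35 and 3.96 for the abdomen, 3.22 and 3.78 for the back, and 2.93 and 3.42 for the cheek. This second ratio was lower in the wound in back mouse 1 (3.78 in skin, 3.01 in wound) and cheek mouse 4 (3.74 and 3.25). Both are ratios of RNA levels, are given as descriptions without a test, and say nothing about active enzyme or inhibitor.

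**Figure D3:**
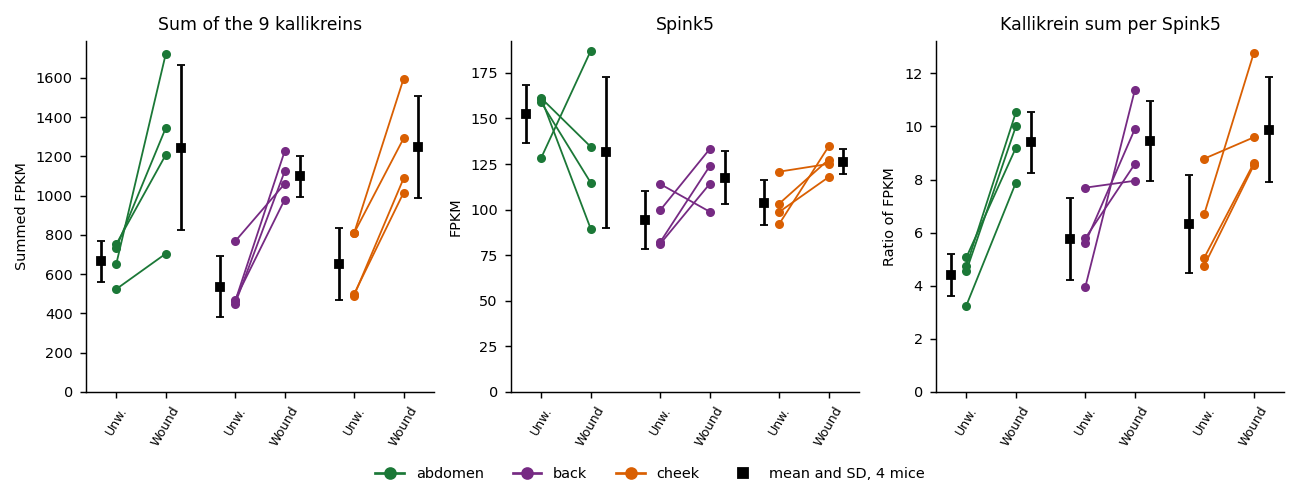
Summed FPKM of the 9 kallikreins, FPKM of Spink5 and the ratio of the 2 in unwounded skin (Unw.) and wounds, on linear axes from 0; points are libraries, lines join the libraries of a mouse, and squares with bars are the mean and SD of 4 mice. Every line goes up for the sum and for the ratio, while Spink5 is lower in the wound than in the skin of 3 of 4 abdomen mice.

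The make-up of the kallikrein RNA changed as well. Klk7 held the largest mean share of the sum in unwounded skin, 34.5%, 33.9% and 30.8% in abdomen, back and cheek, and 26.9%, 25.3% and 24.6% in wounds. Klk10 went from 23.6%, 19.9% and 30.1% of the sum to 12.0%, 10.9% and 15.6%, and Klk5 from 19.1%, 23.0% and 16.4% to 15.1%, 14.2% and 10.3%. Klk6 went from 5.08%, 4.43% and 5.88% to 17.8%, 20.1% and 22.5%, and Klk13 from 0.622%, 0.487% and 0.956% to 4.33%, 5.57% and 5.13%. The lowest share of Klk6 in a wound library, 11.1%, was above its highest share in an unwounded library, 9.23%.

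**Figure D4:**
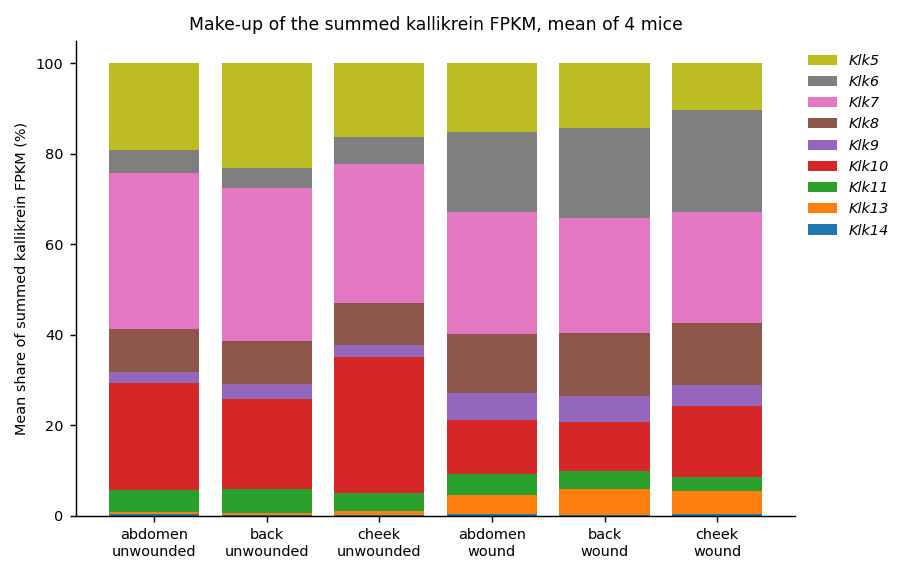
Stacked bars of the mean share (%) of each kallikrein in the summed FPKM of the 9 genes, for the 6 groups of 4 mice. The segments of Klk6 and Klk13 are taller in the 3 wound groups and those of Klk5, Klk7 and Klk10 shorter.

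Between sites, Spink5 alone among the 10 genes passed the test in unwounded skin. In the fit of the 12 unwounded libraries (13956 genes tested), Spink5 was 1.62-fold lower in back than in abdomen skin (log2 difference -0.70 ± 0.13 SE, limma adjusted p 0.0177) and 1.47-fold lower in cheek than in abdomen skin (-0.55 ± 0.13, 0.0484). Back and cheek skin differed by 0.14 (0.541). All 4 abdomen libraries were above all back and all cheek libraries, an arrangement seen for 10.7% and 4.49% of tested genes. This was 1 of 10 genes called for each of these pairs, where 2.67% and 2.57% of all tested genes were called, and 0 of 10 between cheek and back, where 1.05% were. The median of all genes was itself -0.12 between back and abdomen on this scale, and after median-ratio scaling the back difference of Spink5 was -0.56 (0.0513) and the cheek difference -0.56 (0.0461). The call for the back was lost without abdomen mouse 2 or 3 or back mouse 2 or 3 (adjusted p 0.0594 to 0.0696), and the call for the cheek in 9 of 12 fits that left out a mouse. The summed skeletal muscle markers lay between 428 and 12980 FPKM in abdomen skin, 12017 and 19117 FPKM in back skin and 10023 and 19521 FPKM in cheek skin, and the part of such differences in tissue make-up in the Spink5 values was not tested.

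The 9 kallikreins gave no call between sites in unwounded skin, with log2 differences between -1.10 and 0.99 and adjusted p values of 0.177 or more. At an unadjusted p under 0.05 there were 2 kallikrein differences. Klk10 was higher in cheek than in back skin by 0.91 ± 0.35 (adjusted p 0.177), and Klk14 was lower in back than in abdomen skin by 1.10 on the log2 scale (log2 difference -1.10 ± 0.47, 0.197). Many of the 13956 genes pass at this threshold. Ranked by limma p, Pdgfra stood at 2981 for cheek against back (0.0490) and at 3037 for back against abdomen (0.0489). The spread within cheek skin was wide: the libraries of mice 3 and 4 were above those of mice 1 and 2 for Klk6, Klk7, Klk8, Klk10, Klk11, Klk13 and Klk14, for example 10.01 and 14.1 against 1.78 and 2.39 FPKM for Klk13.

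In wounds no member passed the test between sites, which with 4 mice per site does not show that the sites are alike. The count was 0 of 10 for back against abdomen wounds, where 1.27% of 14023 tested genes were called, 0 of 10 for cheek against abdomen, where 10.8% were called, and 0 of 10 for cheek against back, where 2.5% were called. At an unadjusted p under 0.05 by limma, the counts were 0, 2 and 1. Many of the 14023 genes pass at this threshold. Ranked by p, Csf3r (0.0498) stood at 2305 for back against abdomen. Ckm (0.0431) stood at 4171 for cheek against abdomen and Pdgfra (0.0409) at 3319 for cheek against back. Klk5 and Klk11 had lower values in cheek than in abdomen wounds (log2 difference -0.50 ± 0.21, adjusted p 0.129, and -0.49 ± 0.17, adjusted p 0.0752). Without abdomen mouse 4, the wound library that was lowest for all 10 genes, the difference of Klk11 was -0.69 with an adjusted p of 0.00625. Klk10 was higher in cheek than in back wounds by 0.72 ± 0.23 (adjusted p 0.0882), and its 4 cheek wounds (139.6 to 239 FPKM) were above its 4 back wounds (81.2 to 137 FPKM), an arrangement seen for 17.2% of tested genes. For Spink5, abdomen wounds (89.3 to 187 FPKM), back wounds (98.9 to 133 FPKM) and cheek wounds (118 to 135 FPKM) overlapped, with log2 differences between -0.12 and 0.11.

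Whether the wound response itself differed between sites was tested with an F test over the 3 wound effects. It passed for 0 of the 10 genes, where 0.0208% of tested genes (3 of 14423) passed, and at an unadjusted p under 0.05 the count was also 0 of 10. For scale, Cd14, with an F test p of 0.0366, stood at rank 1508 of the tested genes. Among the 10 genes the lowest p was that of Spink5 (0.0779, limma adjusted p 0.421), whose response was 0.58 higher on the log2 scale in back than in abdomen (95% interval 0.02 to 1.14, adjusted p 0.315) and 0.55 higher in cheek than in abdomen (-0.02 to 1.11). For Klk13 the back response exceeded the abdomen response by 0.95 (-0.12 to 2.02). These intervals reach beyond 1 on the log2 scale, so they do not show that the sites respond alike, and a call of Klk14 at back and cheek and not at abdomen, or of Klk5 at abdomen and back and not at cheek, does not show a difference between sites.

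The kallikreins varied together to very different degrees, as given by Pearson's r of log2(FPKM + 0.5) between genes. Over the 24 libraries r ranged from -0.17 (Klk5 with Klk10) to 0.98 over the 36 pairs of kallikreins. It was 0.98 between Klk6 and Klk13, 0.98 between Klk6 and Klk8, and 0.97 between Klk8 and Klk13, with the wound effect shared by all points, and 0.47 between Klk5 and Klk13. Within the 12 unwounded libraries, Klk7 and Klk8 had an r of 0.94 and Klk6 and Klk13 an r of 0.93, while Klk9 and Klk14 had the lowest, -0.36. Within the 12 wounds Klk8 and Klk13 had an r of 0.94, Klk6 and Klk11 0.32, Klk5 and Klk13 0.09, and Klk5 and Klk10 the lowest, -0.35. Spink5 had an r with the kallikreins from 0.18 (Klk5) to 0.84 (Klk8) within the wounds and from -0.02 (Klk9) to 0.55 (Klk7) within unwounded skin. These points share tissue make-up and mice. Over the 24 libraries, Snai1 had a pattern close to that of Klk13 (r = 0.97). Among all other tested genes, most like Klk6 were Gjb6 and Car12 (0.97 each), and most like Klk8 were Blmh (0.98) and Teddm3 (0.97). Klk9 was most like Glrx (0.96) and Sprr2e (0.95), Klk7 like Pcdh1 (0.95) and Tmem79 (0.94), and Klk11 like Eif1ad (0.95) and Them5 (0.94). The likeness was lower for Klk14 (Limk2, 0.89, and Rangap1, 0.88), Spink5 (Fer, 0.84, and Stx12, 0.81), Klk10 (Wdr18, 0.82, and Plet1, 0.82) and Klk5 (Acsm1, 0.79, and Them5, 0.78).

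Other genes of the kallikrein locus and of the surrounding pathway are given for comparison. Klk1, the tissue kallikrein of glands, had a median of 34.8, 20.6 and 9.04 FPKM in abdomen, back and cheek skin and 22.2, 9.84 and 5.26 FPKM in wounds. It fell in back wounds (log2 fold change -1.09 ± 0.27, limma adjusted p 0.00742), with -0.70 (0.0684) in abdomen and -0.74 (0.0541) in cheek wounds. It was lower in cheek than in abdomen skin (log2 difference -1.86, adjusted p 0.00146) and than in back skin (-1.13, 0.036). Klk12, which lies between Klk13 and Klk11, rose by 0.48 ± 0.18 in back (0.0397) and 0.63 ± 0.18 in cheek wounds (0.0137), with a log2 fold change of 0.09 (0.738) in abdomen. Klk4 and Klk15 did not pass the filter on low values. Of the 9 glandular Klk1b genes in the table, 2 passed the filter, and since these genes are near-identical copies their values are uncertain. Klk1b27 rose at all 3 sites (log2 fold change 1.64, 1.30 and 0.97, limma adjusted p 0.000207, 0.000493 and 0.00459). Klk1b24 fell in abdomen wounds (-0.998, 0.0208), with -0.40 in back and -0.79 in cheek wounds. Both genes were close to the lower limit of the measurement. Mean Klk1b27 was 0.11, 0.0175 and 0.095 FPKM in abdomen, back and cheek skin and 1.475, 0.7875 and 0.7425 FPKM in wounds. Klk1b24 was at most 1.76 FPKM.

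Other epidermal proteases numbered 15 tested genes, with 6 higher and 2 lower calls in abdomen wounds, 9 and 2 in back wounds, and 9 and 2 in cheek wounds. Ctsl, a lysosomal cysteine protease, rose by 0.30, 0.67 and 0.76 on the log2 scale (limma adjusted p 0.0235, 1e-04 and 5.11e-05). The 2 genes that fell at each site were Pcsk6, a proprotein convertase (-0.61, -0.68 and -0.45), and Tmprss11f, a membrane-bound serine protease (-0.61, -0.73 and -0.68). Their adjusted p values were 0.000654, 0.000142 and 0.00325 for Pcsk6 and 0.0118, 0.00269 and 0.00582 for Tmprss11f. For St14 and Prss8, the matriptase and prostasin genes upstream of the kallikreins, the log2 fold changes lay between -0.42 and 0.04 and did not pass the test. Casp14, a caspase of cornifying keratinocytes, rose by 2.00, 2.44 and 2.33 (0.00161, 0.000219 and 0.000434). Values of St14, Prss8 and Casp14 are given as the best known genes of this list, chosen after they were seen.

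Other epidermal protease inhibitors also numbered 15 tested genes, with 5 higher and 3 lower calls in abdomen wounds, 6 and 4 in back wounds, and 5 and 4 in cheek wounds. The inhibitors that rose most clearly were Slpi, a secreted inhibitor of leukocyte elastase, and Wfdc12, of the same protein family. The median FPKM of Slpi was 1.42, 1.75 and 1.12 in skin and 44.5, 77.9 and 55.03 in wounds of abdomen, back and cheek (log2 fold change 4.61, 5.28 and 5.16, limma adjusted p 7.68e-05, 1.29e-05 and 2.02e-05). Wfdc12 rose by 4.02, 3.20 and 4.02 (0.000107, 0.000197 and 6.19e-05). The inhibitors that fell at all 3 sites were Serpina12 (-0.67, -0.63 and -0.59), which blocks Klk7, Serpinb8 (-0.31, -0.28 and -0.28) and Wfdc21 (-0.9998, -1.39 and -1.31), with adjusted p values between 0.00251 and 0.0262. Serpinb6a fell in back wounds only by this test (-0.61, 0.00671, with -0.26 and -0.31 in abdomen and cheek wounds), and Spint2 fell in cheek wounds (-0.30, 0.0388, with -0.18 and -0.04 in abdomen and back wounds). Differences between sites in these responses were not read from the calls.

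Substrates and receptors of kallikreins numbered 21 tested genes, with 5 higher and 1 lower call in abdomen wounds, 10 and 1 in back wounds, and 10 and 1 in cheek wounds. Il1b, a cytokine whose precursor kallikreins can cut, had median levels of 1.88, 0.835 and 2.63 FPKM in skin and 104, 196 and 227 FPKM in wounds (log2 fold change 5.51, 7.11 and 6.39, limma adjusted p 1.09e-05, 8.51e-07 and 1.93e-06). Flg2, a filaggrin-like protein of the cornified layer, was the one gene of this list that fell, by 1.53, 1.70 and 1.41 on the log2 scale (0.000981, 0.000228 and 0.00113). For Cdsn, the corneodesmosin cut by Klk5 and Klk7, the log2 fold changes were 0.20, 0.13 and 0.19 (0.321, 0.481 and 0.336), and for F2rl1, the receptor PAR2 that kallikreins can activate, they were -0.30, -0.16 and -0.16 (0.179, 0.451 and 0.482).

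**Figure D5:**
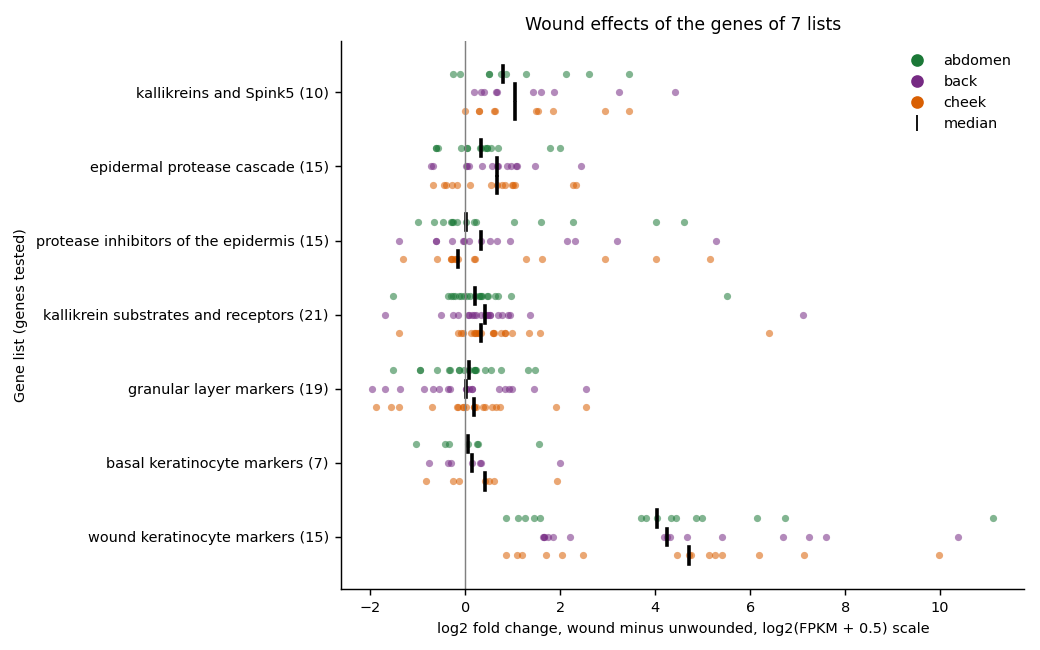
Log2 fold change (wound minus unwounded, log2(FPKM + 0.5) scale) of each tested gene of 7 lists at the 3 sites, with black bars for the medians. The kallikreins and Spink5 lie mostly right of 0 with medians of 0.80, 1.05 and 1.06, to the left of the wound keratinocyte markers, whose medians are 4.04, 4.25 and 4.71.

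Markers of the cells that make up the punches moved with the wounds too. For 19 tested markers of the granular layer, where kallikreins are made, there were 3 higher and 3 lower calls in abdomen wounds, 6 and 5 in back wounds, and 5 and 4 in cheek wounds, with median log2 fold changes of 0.08, 0.02 and 0.17. Krt1, a keratin of the upper epidermis, rose at all 3 sites (1.47, 1.45 and 1.90, limma adjusted p 0.000173, 8.64e-05 and 1.48e-05), and Flg2 fell as given. The 15 wound keratinocyte markers rose in 15, 15 and 14 cases, among them Krt6b, a keratin of activated epidermis (log2 fold change 11.12, 10.38 and 9.98, adjusted p 2.36e-07, 1.26e-07 and 1.55e-07) and Itga5, a fibronectin receptor subunit (1.12, 1.73 and 1.70). The summed level of this list was 746 to 2760 FPKM in unwounded skin and 4671 to 22909 FPKM in wounds, and the unwounded library with the highest sum, that of cheek mouse 4 (2760 FPKM), also had the highest unwounded Klk13 and Klk6. Most of that sum was Sprr1a (1310 FPKM) and Krt17 (1089 FPKM), while Krt6b was 2.91 and Krt16 17.9 FPKM in this library. Among 7 basal keratinocyte markers, with 1 higher and 3 lower, 2 and 3, and 4 and 1 calls at abdomen, back and cheek, Krt14 rose (1.54, 1.99 and 1.94) and Krt15 fell (-1.03, -0.77 and -0.83) at all 3 sites. Neutrophil markers rose in 9, 8 and 9 of 9 cases (summed level 8.75 to 38.0 FPKM in skin and 372 to 2462 FPKM in wounds), among them Clec4d (log2 fold change 5.45, 6.37 and 6.41) and Mmp8 (1.53, 2.82 and 2.99). Macrophage markers rose in 6, 8 and 8 of 8 cases, among them Ms4a7 (1.997, 2.26 and 2.41) and Cd14 (3.21, 3.75 and 4.22). Skeletal muscle markers fell in 0, 6 and 1 of 7 cases, with log2 fold changes of -0.68, -2.20 and -0.84 for Myh2 (adjusted p 0.313, 0.00463 and 0.208) and -1.42, -2.41 and -2.37 for Pvalb (0.189, 0.0279 and 0.037). For 6 fibroblast markers the calls were 0 higher and 3 lower, 2 and 2, and 2 and 2, with falls of Col1a2 (-0.94, -1.26 and -1.06) and rises of Pdgfrb in back and cheek wounds (0.52 and 0.77, with 0.33 in abdomen). The 11 tested hair follicle markers had 5 lower calls in cheek wounds, Krt32 (-2.41) and Msx2 (-1.64) among them, and 0 calls in abdomen and back wounds. The size of these differences rests largely on the unwounded library of cheek mouse 4, where Krt32 was 66.7 FPKM against 2.77 to 7.34 FPKM in the other cheek skin and Msx2 was 34.3 FPKM against 1.46 to 5.11 FPKM. The 9 sebaceous gland markers had 1 higher and 2 lower, 3 and 1, and 0 and 5 calls, with values of -0.56, -0.35 and -0.35 for Scd1 and -1.07, -0.65 and -0.79 for Scd3. The 4 tested salivary or lacrimal gland markers had 0 higher and 1 lower, 2 and 1, and 2 and 1 calls, from Amy1 (-1.70, -1.66 and -1.68) and Lpo (0.39, 0.95 and 0.92) among others. By level, S100a9, the most abundant neutrophil marker, lay between 1.55 and 12.5 FPKM in unwounded skin and between 166 and 1348 FPKM in wounds. C1qa, the most abundant macrophage marker, lay between 131 and 270 FPKM in unwounded skin and between 213 and 359 FPKM in wounds. Acta1, of skeletal muscle, ranged from 181 to 9737 FPKM in unwounded skin and from 732 to 2665 FPKM in wounds. Krt71, of the hair follicle, reached 1651 FPKM in the unwounded cheek library of mouse 4 and 27.3 FPKM at most in the other libraries. Car6, of glands, lay between 9.48 and 69.3 FPKM over all libraries. Bpifa2, Smgc, Muc19, Pip and Bhlha15 of the gland list did not pass the filter on low values. Their highest value was 0.66 FPKM (Bpifa2 in unwounded abdomen mouse 1). Amy1 and Car6 alone therefore do not show gland tissue in the punches. The part of these shifts in cell make-up in the kallikrein values was not tested.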

How the data were processed

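RNA-seq was analysed for 24 libraries of 12 mice, grouped by site and state from their labels. The authors deposited FPKM values per library, made by a sequencing provider with HISAT2, Bowtie2 (2.2.5) and RSEM (1.2.12) on mm10, per the labels and the methods, rounded to 2 decimals and not scaled between libraries. Their table of fold changes and adjusted p-values (18 columns) was not used, and 0 columns of library values were left unused.

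Values were taken as log2(FPKM + 0.5). A gene entered a fit when 4 or more of its libraries reached 0.5 FPKM. limma (3.58.1, statmod 1.5.0, R 4.3.3) was used with trend and robust moderation and Benjamini-Hochberg adjustment over all tested genes, with a threshold of 0.05 (0.001 as an alternative for wounds). The models were tested on simulated data with known changes. Wound effects had a term for each mouse, since both libraries of a mouse come from 1 animal. Deviations of these library pairs from their group means correlated with a mean r of 0.322, 0.348 and 0.281 in abdomen, back and cheek (lowest -0.03). Replicates are separate mice. The number of libraries limits precision, and FPKM gives no counting error.

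The 10 genes and the gene lists were chosen with earlier results of these data known, so no list is independent support. Every one of the 10 genes is named in each comparison, from each other list the 2 genes with the smallest p over the 3 wound effects and those called opposite to most of the list, the most abundant markers, and the 2 genes most correlated with each of the 10. Of the genes this rule gives, 2 are not reported here. Motifs were searched on both strands of RefSeq windows of GRCm38.p6, matched by gene ID. Protein sequences were not used here. Alternatives were other pseudocounts and filters, median-ratio and quantile scaling, plain moderation, other terms and libraries, and each mouse left out.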

Additional observations from a re-analysis of the deposited data

Results flagged for a closer look

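Of 60 groups of 4 libraries, 4 held a value whose gap to the nearest library took up more of the range of the group than the 95% limit of Dixon's test allows. Chance gives such a gap in about 1 in 20 groups. Klk6 in the cheek wound of mouse 3 was 445 FPKM against 212 to 247 FPKM in the other cheek wounds, and this library was also the highest cheek wound for 7 of the 10 genes. Klk8 in the unwounded back library of mouse 1 was 77.6 FPKM against 41.0 to 45.4 FPKM. Klk13 in the back wound of mouse 4 was 46.0 FPKM against 64.0 to 67.2 FPKM. Spink5 in the unwounded abdomen library of mouse 1 was 128 FPKM against 159 to 161 FPKM, and this is the mouse whose wound had the highest Spink5 of the abdomen wounds, 187 FPKM.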

How the results depend on the processing

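Rises of Klk6, Klk8, Klk9, Klk11 and Klk13 kept their direction and an adjusted p under 0.05 at all 3 sites under every alternative and every fit without a mouse, except Klk11 in cheek wounds without cheek mouse 2 (0.0529). At a threshold of 0.001 the counts of raised genes were 3 in abdomen, 4 in back and 4 in cheek wounds. When each mouse was left out, genes called in either direction were counted at an adjusted p under 0.05. These counts lay between 5 and 7 in abdomen, 7 and 8 in back and 4 and 7 in cheek wounds. The 4 was given without cheek mouse 2, where Klk7 (0.054), Klk11 and Klk14 (0.0593) lost their calls. Without cheek mouse 4, whose unwounded library held the hair follicle RNA, the counts were 7, 8 and 7, and without abdomen mouse 4 they were 7, 8 and 7. With a term for each mouse, leaving out a mouse does not change the fold changes at the other sites. In abdomen wounds without mouse 1 the 6 genes called include the lower value of Spink5. Without the mouse term (no replicate block) the counts were 5, 7 and 7, with Klk5 (0.109 in abdomen, 0.174 in back) and Klk7 in abdomen (0.0615) not called, while the 8 libraries of a site alone gave 6, 8 and 7. The shares of all tested genes called in these fits are not given, so the counts are set only against each other. Quantile normalization left Klk7 in abdomen at 0.15. Klk10 changed sign in back wounds without mouse 4 (range -0.0551 to 0.446 when a mouse was left out) and in cheek wounds without mouse 3 or 4 (range -0.0545 to 0.0474).

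In unwounded skin the Spink5 call between abdomen and back was lost (count 0) with median-ratio scaling and with a replicate block on mouse number (adjusted p 0.0517), and the call between abdomen and cheek (count 0) with a pseudocount of 0.1 FPKM (0.0505), no filter (0.0619), quantile normalization (0.0578), no trend or robust moderation (0.0565) and the replicate block (0.089). Mouse numbers name different mice at different sites, so this block pairs nothing: same-numbered libraries of 2 sites had a mean r between -0.174 and 0.0179. Leaving out a mouse gave 0 to 1 genes for both pairs, and 0 to 1 for cheek against abdomen wounds. The difference of Spink5 between wounds had the opposite sign for cheek against abdomen with quantile normalization (0.0679) and, without a mouse, ranged from -0.174 to 0.180, and for back against abdomen from -0.285 to 0.0700. The cause of these changes was not tested. Depth is unknown and Klk14, with libraries at 0.20 to 0.45 FPKM, is the gene most exposed to the pseudocount: its fold change in back wounds was 1.08 to 1.98 on the log2 scale over the alternatives.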

Other observations

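Summed kallikrein levels differed between mice of the same group. In the unwounded cheek, the libraries of mice 3 and 4 had summed kallikrein levels of 808 FPKM each, against 498 and 490.5 FPKM in mice 1 and 2, while Spink5 was 121 and 92.0 FPKM against 98.7 and 103 FPKM. The summed wound keratinocyte markers of the same 4 libraries were 918, 874, 1367 and 2760 FPKM in mice 1 to 4, and the hair follicle markers 15.1, 9.83, 58.0 and 6618 FPKM. In the unwounded back, mouse 1 had a kallikrein sum of 767 FPKM against 449 to 470 FPKM in the other 3 mice, although it was the lowest of the back skin for Klk14, with 1344 FPKM of wound keratinocyte markers against 746 to 1026 FPKM. The ratio of Klk5 to Spink5 was steady in the cheek, 0.982 ± 0.0964 (SD, n = 4) in skin and 0.982 ± 0.0482 in wounds, and it went from 0.833 ± 0.172 to 1.41 ± 0.338 in the abdomen and from 1.28 ± 0.366 to 1.37 ± 0.498 in the back. These ratios were not tested.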
